A study of Mus musculus with 15 samples.

Results

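Cytosolic ribosomal protein genes were followed in crypts of the mouse small intestine 24 h after antibody treatment. Members were the genes on the array whose symbols begin with Rpl or Rps and a digit, together with Rplp0 to Rplp2 and Rpsa, without S6 kinases, pseudogenes and predicted genes. The rule found 85 of the 20144 named genes on the array, and 83 passed the filter on dim probes, 50 of the large and 33 of the small subunit. The other two, Rpl10l and Rpl39l, were well above background on at most 2 and 4 arrays. Among them Rps23rg1 is a retrogene and Rps4l a copy of Rps4x whose RefSeq record is a noncoding transcript. Rps23 itself was not analysed here.

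The N1N2_Lrp6 group had been given antibodies that block Notch1 and Notch2, together with anti-Lrp6 at 30 mg/kg, Lrp6 being a co-receptor for Wnt. The N1N2 group had received the Notch antibodies alone, given in the labels only as a concentration of 1 mg/mL, and the control group an IgG antibody. All mice were 6 to 8 weeks old, their strain and sex are not given in the sources used here, and each group had 5 biological replicates on 1 array each. Whether an array holds 1 mouse or a pool is not stated either, nor is how the crypts of 1 preparation divide among cell types, so fewer cells of a type and less RNA per cell cannot be told apart in any value below.

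Most of these proteins occur once in every ribosome, bound to ribosomal RNA in a large and a small subunit. Their messages are among the most abundant of dividing cells and mostly begin with a run of pyrimidines, the TOP motif, through which the kinase mTOR and the RNA-binding protein Larp1 control their translation. In the intestine the rapidly dividing cells of the crypt depend on a steady supply of new ribosomes, and Myc, a Wnt target, drives the transcription of many of their parts. RNA levels, which the arrays measure, say nothing of translation.

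Values are log2 ratios of crypt RNA (red) to a common mouse reference RNA (green) on the same spot, without dye swap, so that they compare samples and not the amounts of different genes. Changes are differences between group means on this scale, given with the SE of a limma fit over all 23939 features of the 15 arrays, and a gene is called changed at a Benjamini-Hochberg adjusted p under 0.05. The share of spots well above background in red was 57.2% to 73.6% on N1N2_Lrp6 arrays, 70.1% to 77.2% on N1N2 arrays and 71.1% to 79.8% on control arrays. All N1N2_Lrp6 arrays but replicate 5 lay below every other array in this share, whose part in the results was not tested, and no spot was saturated. The 8 epithelial markers averaged 4.97 to 5.48 above the reference in the N1N2_Lrp6 group, 5.10 to 5.68 in the N1N2 group and 5.19 to 5.32 in the control group. Stromal and muscle markers averaged -4.30 to -3.54 in the N1N2_Lrp6 group, -3.49 to -3.17 in the N1N2 group and -3.30 to -2.52 in the control group. Arrays lay on 6 slides: the N1N2_Lrp6 arrays on slides of their own, and 1 slide with both N1N2 and control arrays. Slide and the addition of the Lrp6 antibody therefore cannot be told apart.

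On a typical array the ribosomal protein genes lay a little below the reference. Their median log2 ratio was -0.12, -0.33, -0.24, -0.23 and -0.29 on the N1N2_Lrp6 arrays, -0.46, -0.34, -0.47, -0.40 and -0.31 on the N1N2 arrays, and -0.13, -0.30, -0.36, -0.45 and -0.29 on the control arrays. The N1N2_Lrp6 and N1N2 arrays touched at their edges, N1N2_Lrp6 replicate 2 lying below N1N2 replicate 5, and the control arrays overlapped both. The means were -0.24 ± 0.08 for N1N2_Lrp6, -0.40 ± 0.07 for N1N2 and -0.31 ± 0.12 for control arrays (SD, n = 5 each). The lower quartile set the groups further apart than the upper one: it averaged -0.56 for N1N2_Lrp6 and -0.84 for N1N2 arrays, whereas the upper quartile averaged 0.16 for N1N2_Lrp6 and 0.04 for N1N2 arrays.

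**Figure D1:**
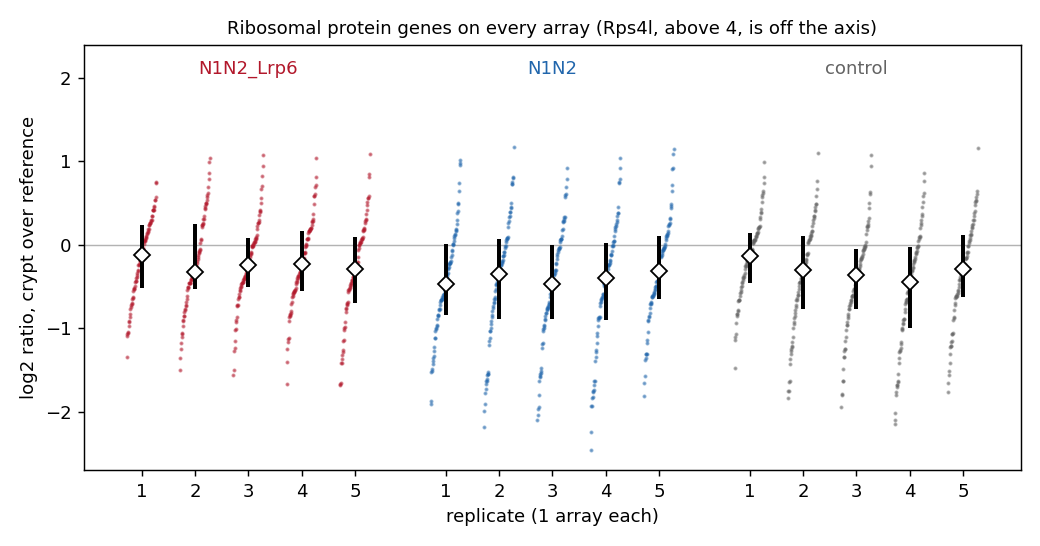
Log2 ratio of crypt over reference RNA (y axis) for the ribosomal protein genes on each of the 15 arrays (x axis, replicates by group); points are genes in rising order, diamonds the median and thick lines the quartiles. Rps4l, between 4.29 and 5.06, lies off the axis; the medians run from -0.33 to -0.12 in the N1N2_Lrp6 group, -0.47 to -0.31 in the N1N2 group and -0.45 to -0.13 in the control group.

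Adding the Lrp6 antibody to Notch blockade went with higher levels of ribosomal protein RNAs. In the N1N2_Lrp6 group 22 of 83 genes rose against the N1N2 group and none fell, whereas 9.44% of all features rose and 7.26% fell. The change was above 0 for 71 genes, against 49.8% of all features, and the median change was 0.21, against -0.00095 for all features. At an unadjusted p under 0.05, 36 genes were higher and none lower, where 15.3% of all features were higher and 13.8% lower. The genes that rose were 15 of 50 of the large subunit and 7 of 33 of the small subunit, with medians of 0.22 and 0.21. The size was modest: the largest change was 0.73, a 1.66-fold difference, and 6 genes, or 7.23%, had all 5 N1N2_Lrp6 arrays above all 5 N1N2 arrays, against 6.13% of all features, so that this share was near the background.

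Rps3a1, a small-subunit protein, showed the largest change. Its log2 ratio was -1.06, -1.36, -1.27, -1.25 and -1.68 in the N1N2_Lrp6 group and -1.87, -2.18, -2.10, -2.45 and -1.65 in the N1N2 group. All but N1N2_Lrp6 replicate 5 lay above the N1N2 arrays, and the change was 0.73 ± 0.18 (SE, limma adjusted p = 0.0138). A second, dimmer probe for the gene changed by 0.69.

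Rps4x, the X-linked small-subunit gene, separated the groups fully. It stood at -0.77, -0.97, -1.16, -0.87 and -1.28 in the N1N2_Lrp6 group and at -1.48, -1.54, -1.55, -1.83 and -1.35 in the N1N2 group, a change of 0.54 ± 0.12 (limma adjusted p = 0.00816). Every N1N2_Lrp6 array was above every N1N2 array, by a margin of less than 0.1 at the closest. Rps2, which lies near the channel through which messenger RNA enters, read 0.45, 0.50, 0.56, 0.61 and 0.31 in the N1N2_Lrp6 group and 0.11, -0.29, -0.03, -0.25 and 0.32 in the N1N2 group (change 0.52 ± 0.13, limma adjusted p = 0.0133). Only N1N2 replicate 5 reached into the N1N2_Lrp6 range. Rps7, one of the ribosomal proteins that bind the p53 ligase Mdm2, rose by 0.61 (limma adjusted p = 0.0252) with 1 N1N2 array inside the N1N2_Lrp6 range.

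Among large-subunit genes Rpl31 and Rpl12 changed most. Rpl31 averaged -1.09 ± 0.20 in the N1N2_Lrp6 group and -1.70 ± 0.32 in the N1N2 group (SD, n = 5 each; change 0.62 ± 0.18 SE, limma adjusted p = 0.0310), and its 3 other probes changed by 0.66, 0.71 and 0.71. Rpl12, which sits at the base of the stalk that recruits elongation factors, read -0.70, -1.05, -1.01, -0.85 and -1.32 in the N1N2_Lrp6 group and -1.52, -1.56, -1.80, -1.68 and -1.31 in the N1N2 group (change 0.59 ± 0.15, limma adjusted p = 0.0147). As with Rps3a1, N1N2_Lrp6 replicate 5 was the lowest of its group. Rpl30, whose yeast counterpart regulates the splicing of its own transcript, rose by 0.53 and Rpl5, which carries 5S ribosomal RNA and also binds Mdm2, by 0.47. Rpl7l1, a paralogue of Rpl7, rose by 0.51 with no overlap between the groups.

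**Figure D2:**
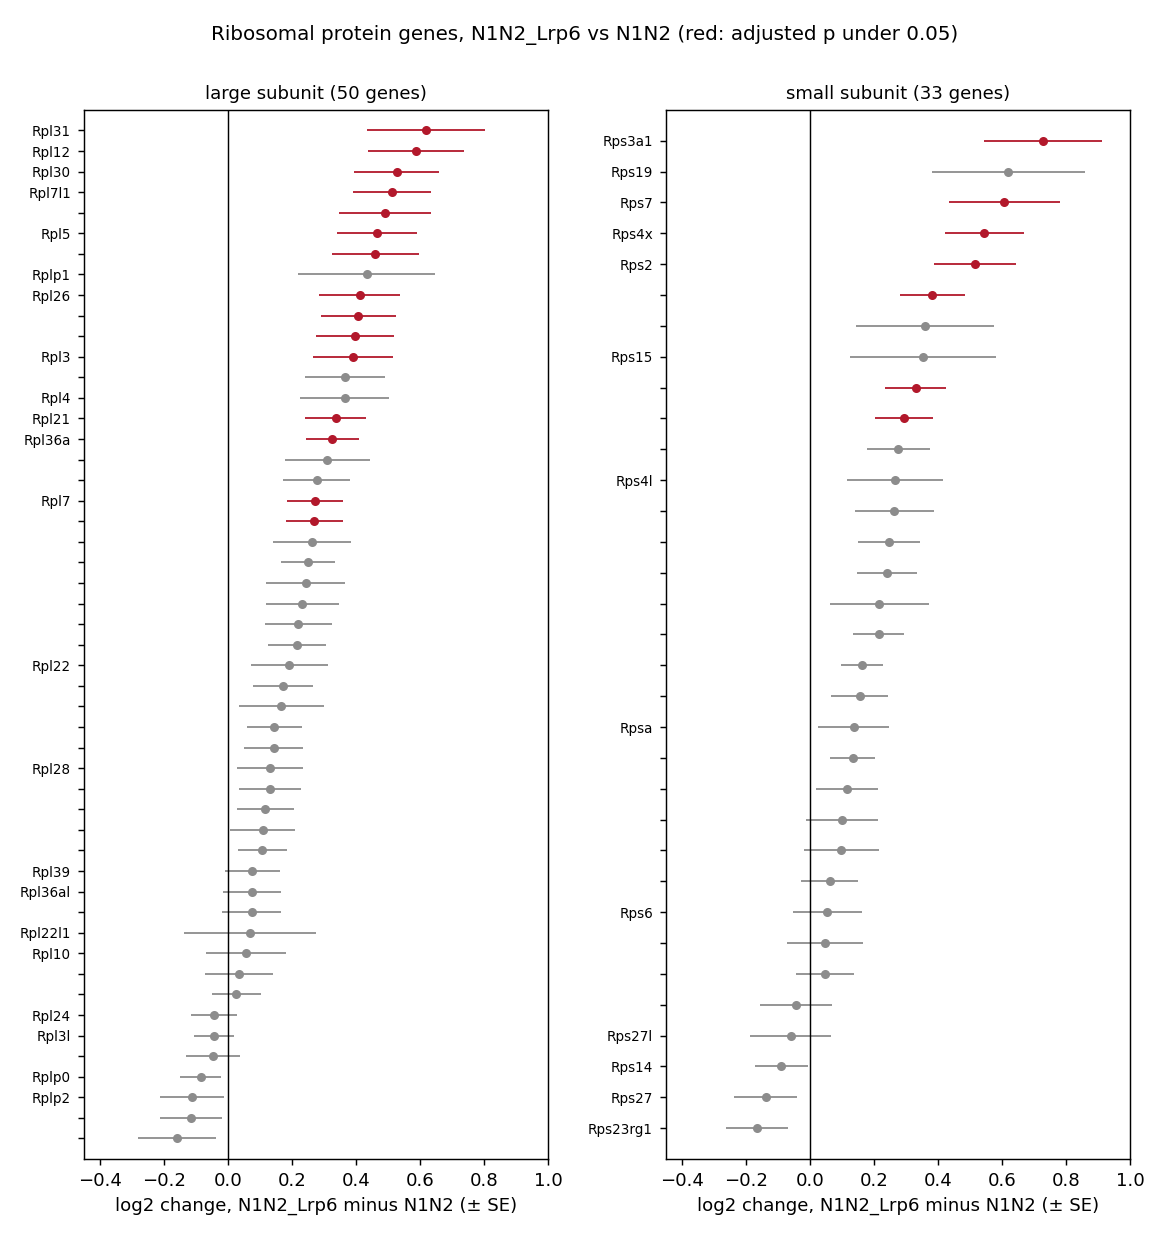
Log2 change of each ribosomal protein gene, N1N2_Lrp6 minus N1N2 (x axis, bars are the SE of the limma fit), sorted within the large (50 genes) and the small (33 genes) subunit; red marks an adjusted p under 0.05, and most genes named in the text are labelled. The 22 genes past the threshold all lie right of 0, and no gene left of 0 passed.

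Several genes did not follow. Rplp0 and Rplp2, proteins of the stalk, changed by -0.08 and -0.11 (limma adjusted p = 0.430 and 0.519), while the third stalk gene Rplp1 changed by 0.43 with a spread too wide to pass (SE 0.21, limma adjusted p = 0.194). Rps6, the classical substrate of the S6 kinases, changed by 0.05 and Rpsa, also known as a laminin receptor, by 0.14. These are values of the brightest probe, and the dimmer probes of both genes changed more, as given below. Rps19, the gene most often mutated in Diamond-Blackfan anaemia, changed by 0.62, the second largest value, but its arrays ranged from -1.67 to -0.87 in the N1N2_Lrp6 group and from -2.24 to -1.31 in the N1N2 group and it did not pass (limma adjusted p = 0.0913). The lowest value was that of the retrogene Rps23rg1, -0.16 (limma adjusted p = 0.294).

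The change went with the brightness of the probe. Of the 83 genes, 70 were among the 5% of features with the strongest red signal. The 13 genes up to the 95th percentile had a median change of 0.41 and 8 of them rose. Between the 95th and 97th percentiles the median was 0.36 with 10 of 19 genes raised, between the 97th and 99th it was 0.19 with 4 of 29, and above the 99th it was 0.11 with 0 of 22 (15 positive). Of the other features, 9.15% rose up to the 95th percentile, 20.5% between the 95th and 97th and 14% between the 97th and 99th. The 4 of 29 were thus near the background of their band. Other features above the 99th percentile moved the other way, with a median of -0.32 over 218 features, and only 0.917% of them rose.

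The same difference appeared between probes of 1 gene. For the 50 genes with several kept probes, the brightest probe had a median change of 0.22 and the dimmest 0.49, and in 44 of the 50 the dimmest changed more in the positive direction. The 3 probes of Rps6 changed, from bright to dim, by 0.05, 0.57 and 0.84, and the 4 probes of Rpsa by 0.14, 0.17, 0.63 and 0.58. In 7 genes the probes disagreed in sign. What brightness contributes to the changes was not tested, and these figures were computed after the gene values had been seen. Ribosomal protein genes also have many processed pseudogenes of near-identical sequence, so that a probe may report more than the gene it is named for.

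**Figure D3:**
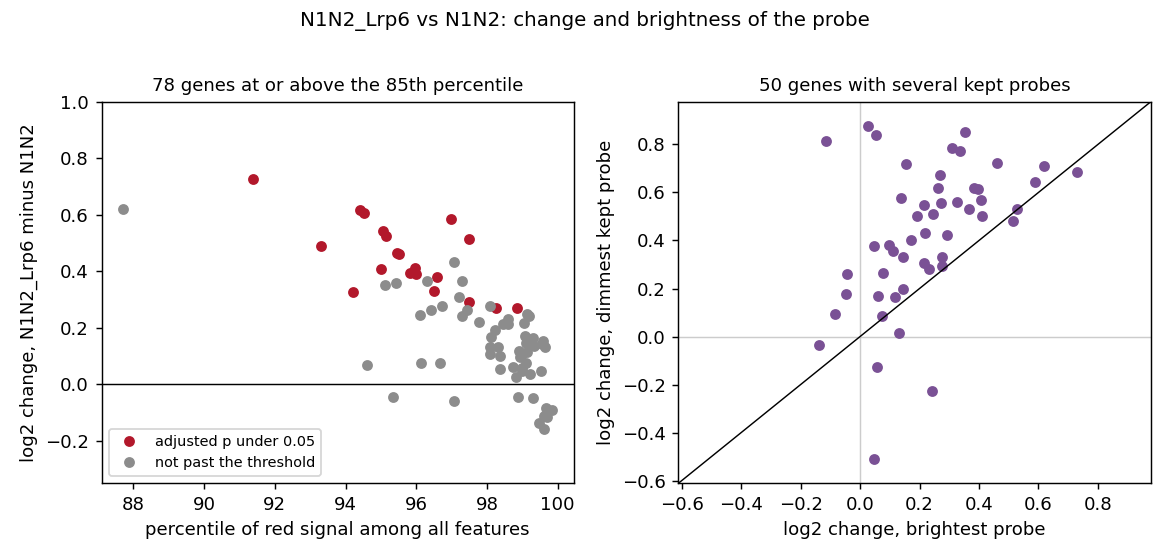
Left: log2 change, N1N2_Lrp6 minus N1N2 (y axis), against the percentile of red signal among all features (x axis) for the 78 ribosomal protein genes at or above the 85th percentile. Right: change of the dimmest kept probe (y axis) against that of the brightest (x axis) for the 50 genes with several probes, with the line of equality; 44 points lie above it.

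The count of 22 rested on particular arrays and on the normalization, the direction less so. It was 13 without N1N2 replicate 2, 10 without N1N2 replicate 3, 7 without N1N2 replicate 4, 10 without N1N2_Lrp6 replicate 1, 13 without N1N2_Lrp6 replicate 3 and 9 without N1N2_Lrp6 replicate 4, and between 16 and 23 without each of the other 4. Without N1N2_Lrp6 replicate 2 one of those was lower, Rps23rg1, at -0.25. In the fits with a single count given, 6.64%, 8.24%, 6%, 7.49%, 8.71% and 6.69% of all features rose, in the order listed. The 7 of 83 was thus near the background. The median change stayed between 0.19 and 0.23 in all 10 cases. With each array centred on its median in place of the intensity-dependent loess curve, 76 genes rose and the median was 0.78. With the ribosomal protein probes kept from shaping that curve, 36 rose and the median was 0.34. With each array divided by a factor that equalized the median log ratios, no gene passed, though the median change was 0.18. Of all features only 375 passed there, in place of 3998. Medians near 0 (0.0144 to 0.0286 in the deposited values) set these factors, so this setting does not test the arrays' spread. All 22 genes kept a positive change in each of the 21 alternatives, and Rps3a1, Rps4x, Rps2, Rpl12, Rpl30, Rpl36a and Rpl7l1 passed in every one but the scaling of arrays. In this comparison 4 of 10 stromal and muscle markers fell (Col1a1, Col1a2, Acta2 and Myh11), the stem cell gene Ascl2, 1 of 5 crypt markers, rose by 1.32, and Krt18, 1 of 8 epithelial markers, fell by 0.58 on the log2 scale. The median change of the 5 crypt markers was -0.25. Another stem cell gene, Lgr5, changed by -0.66 (limma adjusted p = 0.0787), Lyz1 by -0.42, Muc2 by -0.25 and Mki67 by 0.06, none of them passing. These markers were named after their values were seen, and their part in the result was not tested.

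**Figure D4:**
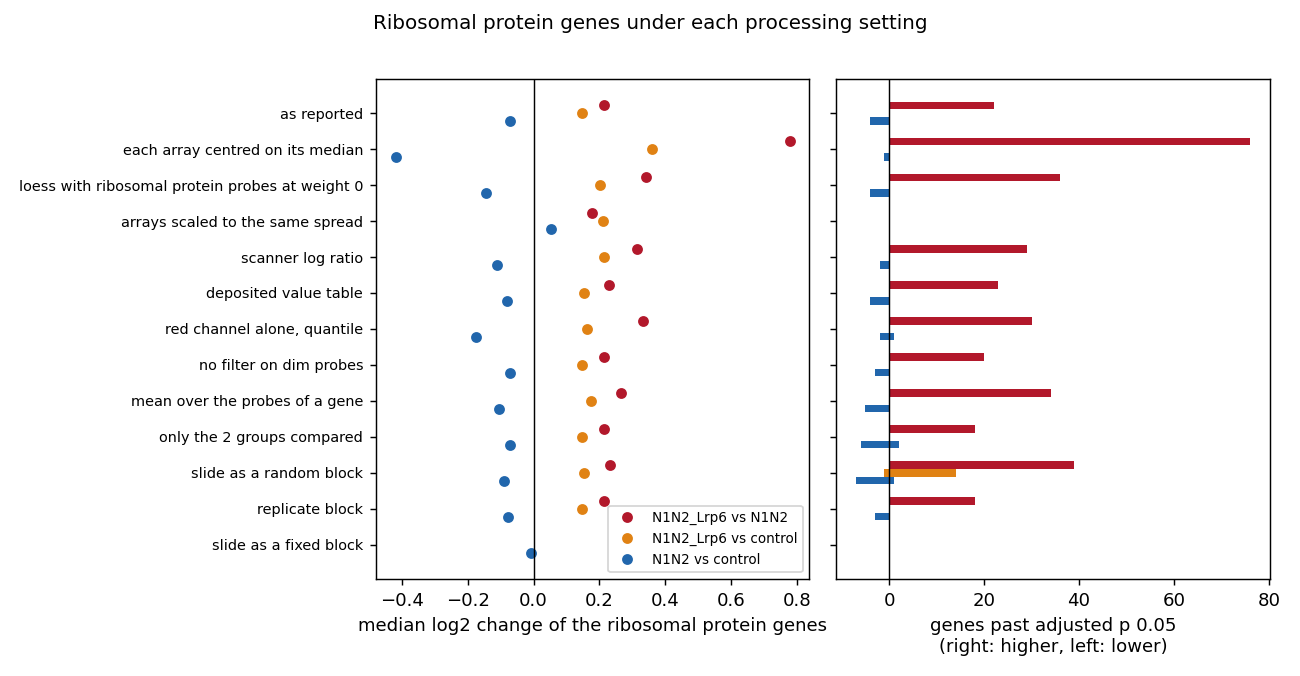
Left: median log2 change of the ribosomal protein genes (x axis) in the 3 comparisons under each processing setting (y axis). The setting labelled as scaled to the same spread scaled the arrays to the same median log ratio. Right: number of genes past an adjusted p of 0.05, higher to the right and lower to the left of 0; the N1N2_Lrp6 vs N1N2 count runs from 0 with scaled arrays to 76 with median centring.

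The start regions of the genes are shown because short promoter elements recur among ribosomal protein genes, and the genes that rose together can be set beside those that did not. RefSeq promoter windows (GRCm38.p6, 250 bases before to 50 after the annotated start) were found for 62 of the 83 genes, 74 windows in all. In the 60-base windows that follow, 40 bases before and 20 after the start, capitals mark the ETS core CCGGAAG on either strand, or CTTTT or CTTTC on the gene's strand within 20 bases of the start. The windows are Rps3a1 at chr3:86142649-86142708 (minus strand), Rps7 at chr12:28635934-28635993 (minus), Rpl31 at chr1:39367811-39367870 (plus), Rpl26 at chr11:68901526-68901585 (plus), Rpl12 at chr2:32961672-32961731 (plus), Rpl15 at chr14:18270967-18271026 (minus) and, as genes that did not pass, Rps6 at chr4:86857348-86857407 (minus) and Rpl11 at chr4:136053374-136053433 (minus). They were picked as examples after the values were seen, and each holds a marked stretch. The same windows of Rps2, Rps4x and Rpl7l1, which also rose, hold none, as do those of some genes that did not pass.
Rps3a1: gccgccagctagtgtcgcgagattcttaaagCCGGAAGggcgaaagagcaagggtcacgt
Rps7: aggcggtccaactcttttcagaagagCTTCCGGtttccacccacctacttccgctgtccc
Rpl31: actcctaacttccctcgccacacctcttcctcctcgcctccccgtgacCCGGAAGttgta
Rpl26: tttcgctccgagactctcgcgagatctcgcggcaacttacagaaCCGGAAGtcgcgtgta
Rpl12: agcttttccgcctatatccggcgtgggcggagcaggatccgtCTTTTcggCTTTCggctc
Rpl15: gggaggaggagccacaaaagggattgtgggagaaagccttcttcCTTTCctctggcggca
Rps6: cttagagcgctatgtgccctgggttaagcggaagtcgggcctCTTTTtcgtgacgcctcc
Rpl11: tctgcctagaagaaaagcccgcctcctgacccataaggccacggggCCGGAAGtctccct

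Over the full windows the ETS core stood in 35.1% of the ribosomal protein windows, against 8.86% of all 32851 windows of the same length. The YY1 motif GCCATNTT, on either strand, stood in 23.0% against 6.05%, and a pyrimidine start (CTTTT or CTTTC, which can overlap one another) in 31.1% against 9.42%. TATAAA, on either strand, was in 9.46% against 13.6%. Within the ribosomal protein genes the shares were close: the ETS core was in 7 of 17 windows of genes that rose in the N1N2_Lrp6 group and in 19 of 57 windows of genes that did not pass, and a pyrimidine start in 4 of 17 and 19 of 57. These are matches of letters, counted without a test, and several windows can belong to 1 gene.

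Notch blockade alone was set against control IgG. None of the 83 genes rose in the N1N2 group, where 6.57% of all features did, and 4 fell, where 5.15% did, so the share that fell was near the background. The median change was -0.07, against 0.0017 for all features, and 27 genes were positive, against 50.4% of all features. At an unadjusted p under 0.05, 2 genes were higher and 10, or 12.0%, lower, where 13.0% of all features were higher and 13.2% lower. Since both comparisons use the same N1N2 arrays, a low N1N2 value enters both.

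Among the 4 genes that fell were Rps4x, Rpl21 and Rpl7, which were also among the 22 above. Rpl21 read -1.42, -1.61, -1.51, -1.82 and -1.57 in the N1N2 group and -1.14, -1.17, -1.15, -1.35 and -1.21 in the control group (change -0.38 ± 0.09 SE, limma adjusted p = 0.0176). Every N1N2 array lay below every control array, and the second probe changed by -0.67. Rpl7 averaged -0.29 ± 0.09 in the N1N2 group and 0.03 ± 0.11 in the control group (SD, n = 5 each; change -0.31, limma adjusted p = 0.0293), and its 3 other probes changed by -0.32, -0.30 and -0.43. Its arrays overlapped, N1N2 replicate 2 reading -0.14 and control replicate 3 reading -0.15. Rps4x changed by -0.40 (limma adjusted p = 0.0467). Rpl4 separated the groups too, at -0.99 to -0.70 in the N1N2 group and -0.62 to -0.39 in the control group, without passing (limma adjusted p = 0.0875). Rps3a1 changed by -0.40 (limma adjusted p = 0.182).

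At the other end stood Rps27l, the paralogue of Rps27 that p53 induces in other tissues. It read 0.98, 0.73, 0.79, 0.74 and 1.08 in the N1N2 group and 0.82, 0.30, 0.64, 0.34 and 0.41 in the control group (change 0.36 ± 0.13, limma adjusted p = 0.0769). Control replicate 1 lay inside the N1N2 range. Rpl24 changed by 0.22 (limma adjusted p = 0.0593) and Rps15 by 0.20 (limma adjusted p = 0.636).

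The 4 calls rested on few arrays. Leaving out N1N2 replicate 4 left none, leaving out N1N2 replicate 1 or 3 or control replicate 2 or 5 left Rpl21 alone, and leaving out N1N2 replicate 5 left Rpl21 and Rps4x. Without control replicate 1 Rps27l and Rpl24 were higher, at 0.44 and 0.26, and Rpl21 alone was lower. Rps27l also passed with the red channel alone (0.41), both passed in a fit of only the 2 groups, and Rpl24 passed with slide as a random block (0.20). With slide as a block, so that only the slide holding 2 arrays of each group informed the difference, none passed and the median change was -0.01. With arrays scaled to the same median log ratio none passed and the median change was 0.05. The median moved the other way, to -0.42 with median centring (Rpl21 alone lower), -0.17 with the red channel alone and -0.14 with ribosomal protein probes kept from shaping the loess curve. Of the markers, Dcn and Lum of the stroma, Cd3e and Gzma of immune cells and Ascl2 fell and Krt18 rose in the N1N2 group; their part in these changes was not tested.

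Against control IgG the full combination left no gene past the threshold. In the N1N2_Lrp6 group none of the 83 genes rose, where 0.221% of all features did, and none fell, where 0.155% did, in the limma fit. The median change was 0.15, against 0.01 for all features, with 68 genes positive, against 53.9% of all features. At an unadjusted p under 0.05, 19 were higher and 1 lower, where 7.68% of all features were higher and 5.33% lower. The largest values were 0.55 for Rps15 (-0.06 ± 0.36 in the N1N2_Lrp6 group, -0.61 ± 0.43 in the control group), 0.53 for Rps19 and 0.51 for Rpl31, and the most negative were -0.29 for Rpl22l1, -0.14 for Rplp0 and -0.10 for Rpl28. The groups overlapped for all 83 genes, where 1.51% of all features lay wholly above and 1.07% wholly below, so that this was near the background. With slide as a random block 14 rose, where 7.29% of all features did, and Rplp0 fell, under an estimated correlation within slides of -0.18. Of all features 2916 passed with that block, in place of 90. Without control replicate 1 Rpl26 alone passed, at 0.50. Of the markers Col1a1, Col3a1 and the stem cell gene Lgr5 fell.

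**Figure D5:**
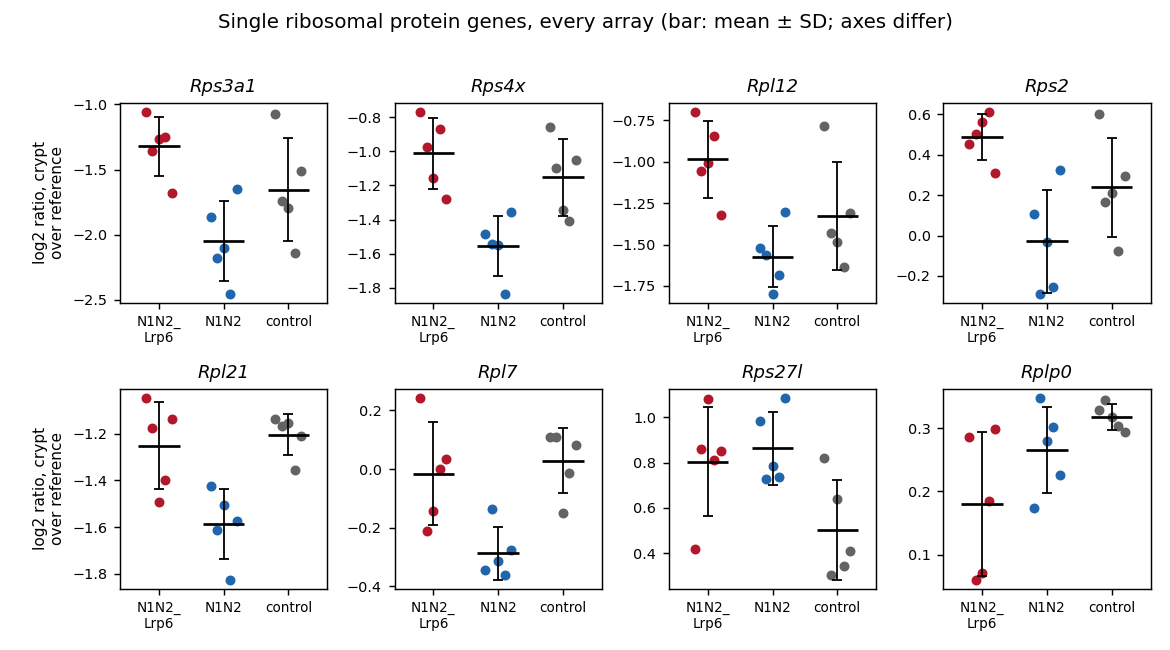
Log2 ratio of crypt over reference RNA (y axes, which differ) on every array for 8 ribosomal protein genes, with N1N2_Lrp6 (red), N1N2 (blue) and control (grey); bars are means ± SD (n = 5 each). Rps3a1, Rps4x, Rpl12 and Rps2 are higher in the N1N2_Lrp6 than in the N1N2 group, as are Rpl21 and Rpl7; Rps4x, Rpl21 and Rpl7 are also lower in the N1N2 than in the control group, and Rps27l and Rplp0 passed in no comparison.

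Against the reference RNA Rps4l stood far above all other ribosomal protein genes. This copy of Rps4x read 4.45 to 5.06 in the N1N2_Lrp6 group, 4.29 to 5.06 in the N1N2 group and 4.38 to 4.86 in the control group. The next in control crypts were Rps14 (1.04 ± 0.12) and Rps23rg1 (0.77 ± 0.11), and the lowest were Rps19 (-1.69 ± 0.50), Rpl36a (-1.65 ± 0.14) and Rps3a1 (-1.65 ± 0.40; SD, n = 5 each). Such a ratio depends on the dye and the reference as well as on the crypts, and it carries no test.

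Paralogues and their parent genes can be set side by side in the N1N2_Lrp6 and N1N2 groups. Rpl7l1 and Rpl7 both rose, by 0.51 and 0.27. Rpl36a rose by 0.33 and its paralogue Rpl36al changed by 0.08 (limma adjusted p = 0.665), and Rps4x rose by 0.54 while Rps4l changed by 0.27 (limma adjusted p = 0.265). Rpl3 rose by 0.39, whereas the probe of Rpl3l, known from striated muscle, was dim and changed by -0.04. Rpl22 and Rpl22l1 changed by 0.19 and 0.07, Rps27 and Rps27l by -0.14 and -0.06, and Rpl26, Rpl10 and Rpl39, whose paralogues were not tested here, by 0.41, 0.06 and 0.08, of which only Rpl26 passed. Each value is that of the brightest probe. The other probes of Rpl10 changed by -0.21 and -0.13, those of Rpl39 by 0.25 and 0.26 and that of Rpl22 by 0.50. Differences between a paralogue and its parent were not tested, and near-identical copies can share a probe.

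A few ribosomal proteins fall outside the naming rule because they are made as fusions or carry other names. Fau and Rack1 passed in no comparison, and in the N1N2_Lrp6 against the N1N2 group they changed by -0.17 and 0.26. Other genes with TOP messages, mostly translation factors, were given the same fit: 8 of 19 rose in the N1N2_Lrp6 group against the N1N2 group and none fell, where 9.44% of all features rose and 7.26% fell, with a median of 0.31. They included the splicing factor Hnrnpa1 (0.77), the nucleolar chaperone Npm1 (0.73) and the initiation factor subunits Eif3e (0.71) and Eif3f (0.49). The elongation factor Eef2 and the poly(A)-binding protein Pabpc1, named after their values were seen, were the 2 with a change below 0, at -0.08 and -0.18. In the N1N2 group against control only Naca, a chaperone of nascent chains, fell (by 0.32 on the log2 scale, limma adjusted p = 0.0321). This 1 of 19 was near the 5.15% of all features that fell, and the list's median was -0.17.

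Of 15 regulators of ribosomal protein synthesis, 3 rose and 2 fell in the N1N2_Lrp6 group against the N1N2 group, where 9.44% of all features rose and 7.26% fell, and their median change was -0.02. Myc rose by 0.72 (limma adjusted p = 0.0219), averaging -1.05 ± 0.47 in the N1N2_Lrp6 group and -1.76 ± 0.25 in the N1N2 group (SD, n = 5 each), and N1N2_Lrp6 replicate 1, at -0.34, was its highest array. Trp53, which encodes p53, rose by 0.44 and Polr1a, the largest subunit of RNA polymerase I, by 0.29. Mdm2, the p53 ligase, fell by 0.50 with no overlap (limma adjusted p = 0.00238). Rps6kb1, the S6 kinase, fell by 0.59, at -0.32 to 0.29 in the N1N2_Lrp6 group and 0.39 to 1.18 in the N1N2 group. As the mean over its probes Rps6kb1 changed by -0.12 and did not pass, and Trp53 missed the threshold in 11 of 21 alternatives. In the N1N2 group against control 6.57% of all features rose, 5.15% fell and 6.14% lay wholly above. Mdm2 and Rps6kb1 were the 2 of 15 regulators that rose there, by 0.43 and 0.50, again without overlap, and none fell. With slide as a block neither passed, at 0.40 and 0.46 (limma adjusted p = 0.147 and 0.331), and Rps6kb1 missed the threshold in 13 of 22 alternatives, with 0.13 as the mean over its probes. None of the 15 passed in the N1N2_Lrp6 group against control in the limma fit, where 0.221% of all features rose and 0.155% fell.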

How the data were processed

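RNA of 15 crypt preparations, 5 per group, was measured on 2-colour Agilent arrays, crypt RNA in Cy5 and the common reference in Cy3. Per the file headers, spots were read with Feature Extraction 11.0.1.1. The deposited scanner output holds each spot's median intensity and local background intensity, a log10 ratio with the software's own normalization, and flags. The authors' deposited values are in log2; the submitters' processing notes name R 3.0.0 and limma 3.6.7, and its columns, with medians of 0.0144 to 0.0286, followed the log2 ratios computed here at r of at least 0.99998, in the same direction. Its centring is not stated.

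Calculations used R 4.3.3, data.table version 1.17.8 and limma 3.58.1. Spots with uniformity or population flags were left out, background was corrected by normexp (offset 50), log ratios were loess-normalized array by array without control spots, and spots of a probe were averaged. A probe was kept where its red signal stood well above background on 4 or more of a group's 5 arrays, 28488 of 39429; the brightest stood for a gene. One fit (lmFit, eBayes) of 3 groups was adjusted over 23939 features, of which 370 lacked a value on some array. Among the members this was Rpl19, with 4 N1N2 values. Symbols were updated through RefSeq (GRCm38.p6).

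The fit was tested on simulated log ratios. The members, gene lists and named genes were chosen with earlier results of these data known. Genes were named by rule: per comparison up to 10 called members by size of change, or the 3 extremes each way where fewer than 5 passed, the 3 highest and lowest ratios in control crypts, paralogues and parents, the stalk genes, Rpsa and Rps6, and up to 4 called genes per other list. Alternatives were other normalizations, the scanner and deposited ratios, red signal alone, no filter, probe means, slide and replicate blocks, 2-group fits and leaving out each array. Replicates are arrays of separate biological samples per the series design, and their number limits the precision. Protein sequences were not used here, and a few single-gene results that the rule would name are not reported here.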

Additional observations from a re-analysis of the deposited data

Results flagged for a closer look

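Within-group outliers were sought in the array medians and the named ribosomal protein genes, 108 groups of 5 arrays, and an array was set apart where its gap to the nearest other exceeded 0.71 of the group's range. This picked 4 values; chance picks about 1 in 20 groups. Rpl4 read 0.17 on N1N2_Lrp6 replicate 1, against -0.76 to -0.53 on the others of the group. On control replicate 1 Rpl24 read 0.064, against -0.17 to -0.11, and Rps19 read -0.83, against -2.10 to -1.76. Rps27 read 0.27 on control replicate 4, against 0.61 to 0.67.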

How the results depend on the processing

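For N1N2_Lrp6 against N1N2, the 22 ribosomal protein genes past the threshold became 76 with median centring in place of loess, 36 with ribosomal protein probes at weight 0, 0 with scaled arrays, 34 with the mean over a gene's probes and 39 with slide as a random block. Leaving out 1 array gave 7 to 23, where 6% to 11.1% of all features rose. The median change of 0.21 became 0.78, 0.34 with weight 0, 0.31 with the scanner's ratio and 0.33 with the red channel alone, and 0.19 to 0.23 without 1 array. For N1N2 against control, the 4 genes became 1 with median centring, 0 with scaled arrays, 2 with the scanner's ratio, 8 with only the 2 groups (2 higher, 6 lower), 0 with slide as a fixed block and 8 with slide as a random block (1 higher, 7 lower), and 0 to 5 without 1 array; the median of -0.07 became -0.42 with median centring, 0.052, with its sign turned, with scaled arrays and -0.17 with red alone, and -0.12 to -0.02 without 1 array. For N1N2_Lrp6 against control, 0 genes became 15 with slide as a random block and 0 to 1 without 1 array, and the median of 0.15 became 0.36 with median centring and 0.09 to 0.20 without 1 array. The estimated correlation within slides was -0.18, and a negative value narrows the errors. Slide as a random block raised the calls over all features too. They went from 3998 to 7040 for N1N2_Lrp6 against N1N2 (15.5% of all features higher) and from 2806 to 4105 for N1N2 against control. For N1N2_Lrp6 against control they went from 90 to 2916 (7.29% higher).

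Same-numbered arrays did not deviate together in every pair (r from -0.44 to 0.10 for N1N2_Lrp6 and N1N2, -0.01 to 0.63 for N1N2 and control). The numbers are not stated to pair the samples, and so few values cannot decide whether they do. With the replicate block 18, 3 and 0 genes passed in the 3 comparisons, N1N2_Lrp6 against N1N2 first and against control last. Of 43 calls of named genes none changed sign in any alternative, but 39 missed the threshold with scaled arrays, 19 without N1N2 replicate 4 and 9 with median centring. Among all features past the threshold the share that was higher was 56.6% for N1N2_Lrp6 against N1N2 and 77.2% with median centring; for N1N2 against control it was 56.1%, 45.8% with median centring and 70.2% with scaled arrays; for N1N2_Lrp6 against control it was 58.9%, 38.4% with the scanner's ratio and 76.0% with only the 2 groups. A fixed slide block could be fitted only for N1N2 against control.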

Other observations

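Mitochondrial ribosomal proteins, which build the separate ribosomes of mitochondria, were measured for 77 genes. In the N1N2_Lrp6 group 53 of them rose against the N1N2 group and none fell, with a median change of 0.44, where 9.44% of all features rose, and 36 did not overlap between the groups, where 6.13% of all features lay wholly above. The per-array median was 0.15 to 0.34 in the N1N2_Lrp6 group, -0.38 to 0.06 in the N1N2 group and -0.06 to 0.25 in the control group. Mrps22 rose by 0.90, averaging 0.17 ± 0.21 in the N1N2_Lrp6 group and -0.73 ± 0.25 in the N1N2 group (SD, n = 5 each), and its groups did not overlap. Mrpl42 rose by 0.83, Mrpl13 by 0.76 and Mrpl18 by 0.67. In the N1N2 group 23 of the 77 fell against control and none rose (median -0.24, where 5.15% of all features fell), among them Mrpl42 by 0.72, Mrps22 by 0.65, Mrpl3 by 0.60 and Mrpl9 by 0.59 on the log2 scale. With slide as a block these 4 changed by -0.76 to -0.63 and none passed (limma adjusted p = 0.0679 to 0.187). Against control none passed in the N1N2_Lrp6 group in the limma fit, where 0.221% of all features rose and 0.155% fell, and the median was 0.20. At an unadjusted p under 0.05, 26 were higher and none lower, where 7.68% of all features were higher and 5.33% lower. Whether mitochondrial and cytosolic genes differ in these changes was not tested, and their probes differ in brightness.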
